A study of Mus musculus with 18 samples.

Results

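A cluster of repair junctions on mouse chromosome 2 was described, made up of every junction that fell between positions 167500001 and 167900000 (mm10) in 12 coding-join libraries. It held 268 of 30937 junctions. The window was chosen because earlier work on these libraries had shown many junctions there, so its counts and positions are a description and carry no test. The outermost members lay at 167516874 and 167891620. In the 100 kb outside each edge there were 3 junctions on the left, the nearest at 167490216, and 3 on the right, the nearest at 167906259.

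The libraries came from v-abl-transformed B cells of strain 129 mice, which a viral Abl oncogene keeps growing at an early stage of B cell development, with an integrated pMX-INV substrate. This construct carries recombination signals that the RAG nuclease cuts, and the bait primer reads out from its coding end into whatever that end was joined to, the prey. The 4 genotypes were WT, the single mutants DNA-PKcs -/- and CtIP A/A, and the double mutant CtIP A/A DNA-PKcs -/-. CtIP is a factor that starts the trimming of broken DNA ends, and the series title refers to its ATM/ATR phosphorylation site. DNA-PKcs is the kinase subunit that end joining uses to open hairpin coding ends. Each genotype had 1 G1 library, from cells held in the Abl kinase inhibitor STI571 (3 µM) for 48 or 72 h, and 2 G2 libraries, from cells held in STI571 for 24 h and then in the CDK1 inhibitor RO3306 (10 µM) for 48 h. All cells carried the substrate and were given STI571, which lets such lines express RAG. The labels do not say whether replicates were separate cultures or whether a genotype was 1 clone, so a difference between genotypes cannot be told apart from a difference between lines.

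RAG cuts at a recombination signal, which consists of a heptamer with consensus CACAGTG, a spacer of 12 or 23 bases and a nonamer with consensus ACAAAAACC. Cutting falls at the border of the heptamer, leaving a hairpin on the flank outside it, the coding end, and a blunt end on the heptamer side, the signal end. Short stretches that resemble a heptamer occur throughout the genome, and RAG can cut some of them. When an end is joined to a break elsewhere, junctions that spread to both sides of the break read away from it, to lower coordinates (strand -) on its left and to higher coordinates (strand +) on its right. These points are background and not results of the libraries.

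The sequence at the positions where junctions stacked is shown first, because the stacks are the points around which the cluster was arranged. A stack is a set of 4 or more junctions with breaks within 10 bp of the most used break. There were 8 stacks with 82 junctions. The windows printed here cover the 3 most populated ones, the stack of WT G1 in the distal part of the cluster and the stack at a change of strand. Capitals mark every 7-base stretch that begins with CAC, on either strand, and has its border within 10 bp of the most used break. Sequences are the top strand of GRCm38 (mm10), 5′ to 3′.

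Stack at 167685261, chr2:167685232-167685291: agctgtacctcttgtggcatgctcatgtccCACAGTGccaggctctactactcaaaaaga

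Stack at 167686548, chr2:167686519-167686578: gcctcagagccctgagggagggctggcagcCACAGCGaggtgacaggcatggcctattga

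Stack at 167692106, chr2:167692077-167692136: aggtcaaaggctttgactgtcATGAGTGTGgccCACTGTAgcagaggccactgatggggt

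Stack at 167752998, chr2:167752969-167753028: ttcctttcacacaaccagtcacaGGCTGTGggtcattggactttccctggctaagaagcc

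Stack at 167764880, chr2:167764851-167764910: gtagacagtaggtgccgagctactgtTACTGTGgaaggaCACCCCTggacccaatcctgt

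Members were found in 6 libraries and not in the other 6. The WT G1 library held 71 and the WT G2 replicate 1 library 6. The DNA-PKcs -/- G1 library held 94, and DNA-PKcs -/- G2 replicate 1 also held 94. The CtIP A/A G2 libraries held 1 and 2. The WT G1, DNA-PKcs -/- G1 and DNA-PKcs -/- G2 replicate 1 libraries thus had 259 of the 268 members, and 9 lay elsewhere.

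The share of the cluster was taken among genome junctions that carried no telomere repeat and lay outside the antigen receptor loci. In WT G1 it was 4.50% of 1579 such junctions (95% Wilson interval 3.58% to 5.63%), and in WT G2 replicate 1 it was 5.61% of 107 (2.60% to 11.7%). It was 10.7% of 881 in DNA-PKcs -/- G1 (8.80% to 12.9%) and 30.03% of 313 in DNA-PKcs -/- G2 replicate 1 (25.2% to 35.3%). The second DNA-PKcs -/- G2 library had 0 members among 411 such junctions, which allows a share of up to 0.730%. The pair of libraries under 1 label therefore lay far apart. The window was chosen for its counts, so the intervals and limits describe each library and do not test a difference. Intervals and limits cover counting error only.

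The 3 CtIP A/A DNA-PKcs -/- libraries had 0 members. The limits on their share were 0.216% of 1388 junctions in G1, 0.651% of 461 in G2 replicate 1 and 0.438% of 685 in G2 replicate 2. These limits likewise describe each library alone. WT G2 replicate 2 with 0 of 93 allowed up to 3.23% and CtIP A/A G1 with 0 of 260 allowed up to 1.15%. The limit of WT G2 replicate 2 lay within the interval of WT G2 replicate 1, so a difference between these replicates was not detectable at this depth.

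Leaving out telomere repeats and receptor loci reduced the genome junctions from 1817 to 1579 in WT G1, from 3658 to 881 in DNA-PKcs -/- G1 and from 2813 to 313 in DNA-PKcs -/- G2 replicate 1. As a share of all genome junctions the cluster was 3.91% of 1817 in WT G1, 2.57% of 3658 in DNA-PKcs -/- G1 and 3.34% of 2813 in DNA-PKcs -/- G2 replicate 1. These 3 shares lay closer together than those of the smaller pool. Of the junctions on chromosome 2, the cluster made up 35.3% of 201, 25.3% of 372 and 32.0% of 294 in the same order. Libraries ranged from 289 to 7068 junctions in all.

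**Figure D1:**
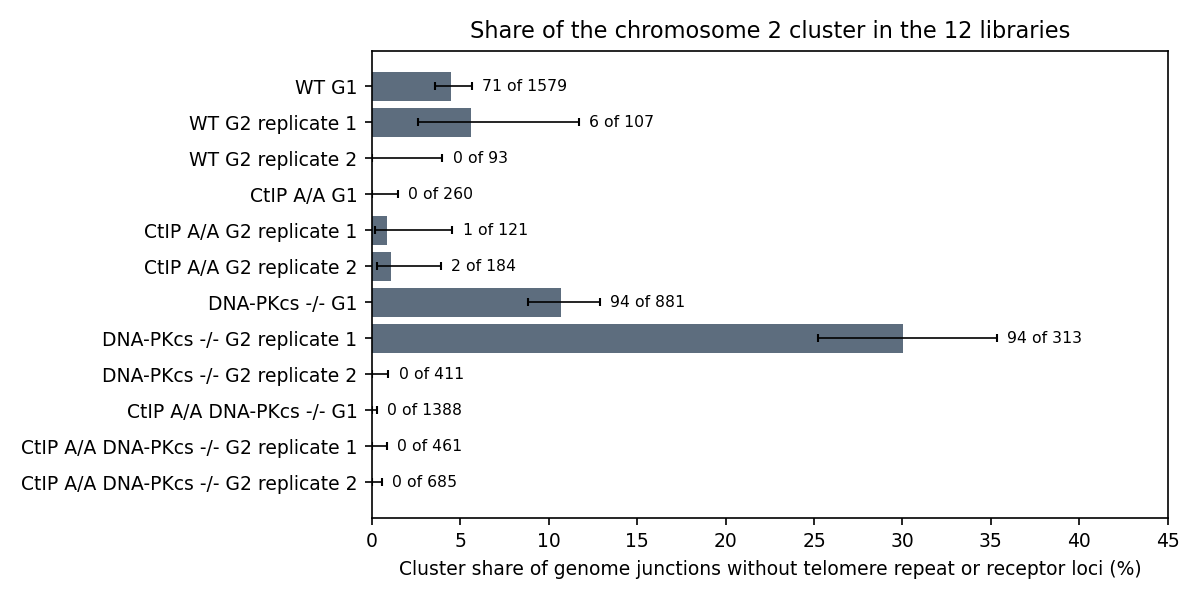
Share of the chromosome 2 cluster (x axis, percent of genome junctions without telomere repeat or antigen receptor loci) in each of the 12 libraries (rows), with 95% Wilson intervals as lines and the counts beside each bar. DNA-PKcs -/- G2 replicate 1 stands highest at 30.03%, while DNA-PKcs -/- G2 replicate 2 and the 3 CtIP A/A DNA-PKcs -/- libraries are at 0.

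Members seldom repeated one another. Counting each combination of prey position, strand and bait end once left 260 combinations. WT G1 alone had combinations with more than 1 line, 71 lines in 66 combinations. Of the 5 further lines only 2 also matched an earlier line in homology and insertion lengths, so WT G1 had 69 different joins by this measure. There were 3 combinations present in 2 libraries each. The combination at 167685261 was in WT G1 and WT G2 replicate 1. That at 167686548 was in WT G1 with 4 lines, which were not all alike in insertion length, and in DNA-PKcs -/- G1 with 1. That at 167765618 was in DNA-PKcs -/- G1 and DNA-PKcs -/- G2 replicate 1.

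Sequencing run, read from the read names, did not divide the libraries with members from those without. Run 1 held the first G2 replicates and run 2 the G1 libraries and second G2 replicates, so both runs had libraries with members and libraries at 0. Within each pair of G2 libraries, however, run and replicate number are the same division. DNA-PKcs -/- G2 had 94 members in run 1 and 0 in run 2, and WT G2 had 6 and 0, so for these pairs run cannot be told apart from replicate. The prey alignments were 26 to 516 bp long. Of 21519 aligned prey bases 124 (0.576%) differed from the reference, and 216 of 268 members had no mismatch or gap. No member carried a telomere repeat.

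The cluster was not 1 peak. With neighbours linked up to 5 kb apart, 248 members fell into a pair of groups and 20 lay outside them. The proximal group had 117 junctions in chr2:167680587-167692443, a span of 11857 bp. The distal group had 131 junctions in chr2:167747305-167769726, a span of 22422 bp. These groups were set after the positions were seen.

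The libraries used the groups to different extents. In WT G1 the proximal group held 57 of 71 members, or 80.3%, and the distal group 9, or 12.7% (6.81% to 22.4%). Each group held 45 of 94 in DNA-PKcs -/- G1, or 47.9% (38.1% to 57.9%). In DNA-PKcs -/- G2 replicate 1 the proximal group held 12 of 94, or 12.8%, and the distal group 76, or 80.9% (71.7% to 87.5%). The order of the distal share ran from WT G1 to DNA-PKcs -/- G1 to DNA-PKcs -/- G2 replicate 1, with intervals that did not overlap. Each is 1 library and the groups were set on these same positions, so the order is a description and was not tested over replicates.

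The working name of the cluster, near Tmem189, fitted the proximal group only. Tmem189 (ENSMUSG00000090213.1, - strand, 167642608 to 167689822), which encodes a desaturase of plasmalogen synthesis, overlapped 96 members, all in introns and all in the proximal group. The lincRNA A530013C23Rik (ENSMUSG00000006462.6, + strand, 167691177 to 167729172) overlapped 29, of which 19 were in the proximal group. Of the 117 proximal junctions 115 lay in an intron, and 0 of the 268 members lay in an annotated exon. Cebpb (ENSMUSG00000056501.3, + strand, 167688915 to 167690418), the gene of a bZIP transcription factor, lies between the proximal stacks and overlapped none.

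The distal group lay in no annotated gene. The change of strand within it, described further on, was 35712 bp beyond the end of A530013C23Rik and 12583 bp before the start of the lincRNA Gm14321. The other genes within 100 kb of the densest point were Ube2v1, the catalytically inactive partner of a ubiquitin-conjugating enzyme, and Gm20431, Gm14320, Gm22355, Gm11475, 9230111E07Rik and Gm14321, with 0 members each, and Gm11476 with 1. Of all members 10.1% started in repeat-masked sequence, which makes up 25.7% of the bases of the window. The share was 4.27% in the proximal group and 15.3% in the distal group. It was not taken for other genome junctions, so no meaning is given to the shortfall.

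The densest point, the centre of the 10 kb sliding window with the most junctions when the 3 libraries had equal weight, was 167687998. It lay 157 bp from the point set by DNA-PKcs -/- G1 alone and 852 bp from that set by WT G1 alone. For DNA-PKcs -/- G2 replicate 1 alone the densest point was 167764282, 76284 bp away and inside the distal group.

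Around the shared point, WT G1 had 53 members on the left and 18 on the right, with a median distance of 2725 bp. DNA-PKcs -/- G1 had 31 on the left and 63 on the right, with a median distance of 30832 bp. DNA-PKcs -/- G2 replicate 1 had 10 on the left and 84 on the right, with a median distance of 75712 bp. Within 10 kb of it lay 57 of 71 members of WT G1, 45 of 94 of DNA-PKcs -/- G1 and 12 of 94 of DNA-PKcs -/- G2 replicate 1.

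Members did not mostly read away from the shared point in any of the 3 libraries. Those that read away from it, strand - on the left and strand + on the right, were 25 of 71 in WT G1 (35.2%, 25.1% to 46.8%). They were 43 of 94 in DNA-PKcs -/- G1 (45.7%, 36.0% to 55.8%) and 40 of 94 in DNA-PKcs -/- G2 replicate 1 (42.6%, 33.0% to 52.6%). WT G1 leaned the other way. Its left side held 32 junctions on strand + against 21 on strand -, and its right side 14 on strand - against 4 on strand +.

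Set against its own densest point, DNA-PKcs -/- G2 replicate 1 was ordered by strand. It then had 59 members on the left, 54 of them on strand -, and 35 on the right, 29 of them on strand +. The share reading away was 83 of 94, or 88.3% (80.2% to 93.3%), and the median distance was 1977 bp. The own-library points left DNA-PKcs -/- G1 at 45.7% and WT G1 at 35.2%.

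**Figure D2:**
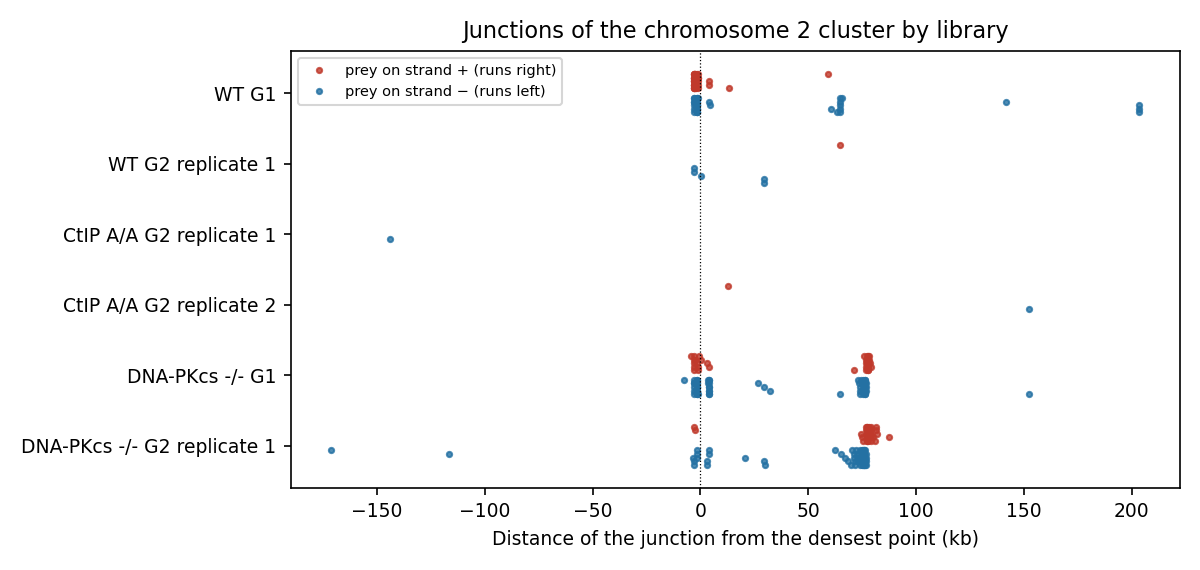
Position of each cluster junction relative to the densest point (x axis, kb; dotted line at 0) in the libraries with members (rows), with strand + in red above and strand - in blue below each row's centre. WT G1 gathers near 0, DNA-PKcs -/- G2 replicate 1 gathers near 76 kb, and DNA-PKcs -/- G1 has 45 junctions in each group.

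In the proximal group the largest stack stood at a consensus heptamer. A CACAGTG occupies 167685262 to 167685268, in an intron of Tmem189, and the most used break was at its border with 167685261. The stack had 26 junctions, of which 17 were in WT G1, 6 in DNA-PKcs -/- G1, 1 in DNA-PKcs -/- G2 replicate 1 and 2 in other libraries. Both strands were used: 14 read left over the flank outside the heptamer and 12 read right. On the bottom strand the same bases read CACTGTG, which matches the consensus at 6 of 7 bases and has its border at 167685268. The 12 read toward the flank outside that stretch, and 2 breaks lay at its border. The heptamer lies 4561 bp inside Tmem189 from its start site and 3654 bp before the start of Cebpb.

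The sequence alone did not mark this place out in the window. CACAGTG occurs 162 times on the 2 strands of the 400 kb, and 151 of these had no member within 50 bp. The copy at 167685262 had 40 members within 50 bp, and the next most used copy had 3. Beside this copy the best nonamer match was 5 of 9 bases at a spacer of 12, which 5.88% of all positions of the window reach. A match is a description of letters and not a site.

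The next stack stood at a heptamer with 1 changed base. CACAGCG, which matches the consensus at 6 of 7 bases, occupies 167686549 to 167686555, and the most used break at 167686548 is its border. All 19 junctions of the stack were on strand -, reading left over the flank outside the heptamer. WT G1 had 12 of them, DNA-PKcs -/- G1 6 and DNA-PKcs -/- G2 replicate 1 1. At the border base itself lay 8 lines, 7 from WT G1 and 1 from DNA-PKcs -/- G1, with 3 different bait ends. At a spacer of 23 bases this heptamer had a nonamer match of 6 of 9 bases, which 1.57% of positions reach. At a spacer of 12 bases it matched 1 of 9. The marked stretches at the other printed stacks, apart from the first, matched at most 3 of 9 at either spacer, which 39.0% of positions reach. These percentages do not allow for the number of stretches and spacers tried.

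The pair of heptamers lies 1287 bp apart. At the first stack both strands were used, and at the second strand - alone. The 200-bp-linked site of the first, chr2:167685194-167685396, had 49 junctions: 31 in WT G1, 12 in DNA-PKcs -/- G1 and 4 in DNA-PKcs -/- G2 replicate 1, with 2 elsewhere. That of the second, chr2:167686356-167686664, had 30: 14, 13 and 3 in the same order.

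Further right in the group, chr2:167686944-167687157 held 11 junctions, 7 in WT G1 and 4 in DNA-PKcs -/- G1. At chr2:167692040-167692132, in A530013C23Rik, there were 15, with 10 in DNA-PKcs -/- G1, 3 in WT G1 and 2 in DNA-PKcs -/- G2 replicate 1. The stack inside it, at 167692106, had 9 junctions, 8 of them on strand -. It lies between 2 stretches that each match the heptamer at 5 of 7 bases, CACACTC on the bottom strand (GAGTGTG as printed) and CACTGTA on the top strand. The 8 read toward the heptamer side of the former and the flank outside the latter.

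The sides of the first heptamer differed in WT G1. Distances on both strands were taken from the border of CACAGTG, and the border of CACTGTG on the bottom strand lies 7 bp to its right. Within 150 bp of the border, 7 junctions on strand - had breaks from 167685256 to 167685266, at most 5 bp from the border, and a median bait deletion of 0 bp. The bait deletion is the number of bases lost from the substrate's coding end, counted from its first coding base at substrate position 1943. The 24 junctions on strand + had breaks from 167685262 to 167685396, up to 134 bp away, with a median bait deletion of 27.5 bp and 15 deletions over 20 bp. On strand + of this 1 library, junctions farther from the border had longer bait deletions (Spearman rho 0.81 over 24 junctions, given as a description).

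The same window of DNA-PKcs -/- G1 held 6 junctions on strand -, at most 27 bp from the border, with a median bait deletion of 1.5 bp. It held 6 on strand +, up to 75 bp away, with a median of 20 bp. DNA-PKcs -/- G2 replicate 1 had 2 on each strand. The longer deletions on strand + were thus present in DNA-PKcs -/- G1 as well, on few junctions.

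**Figure D3:**
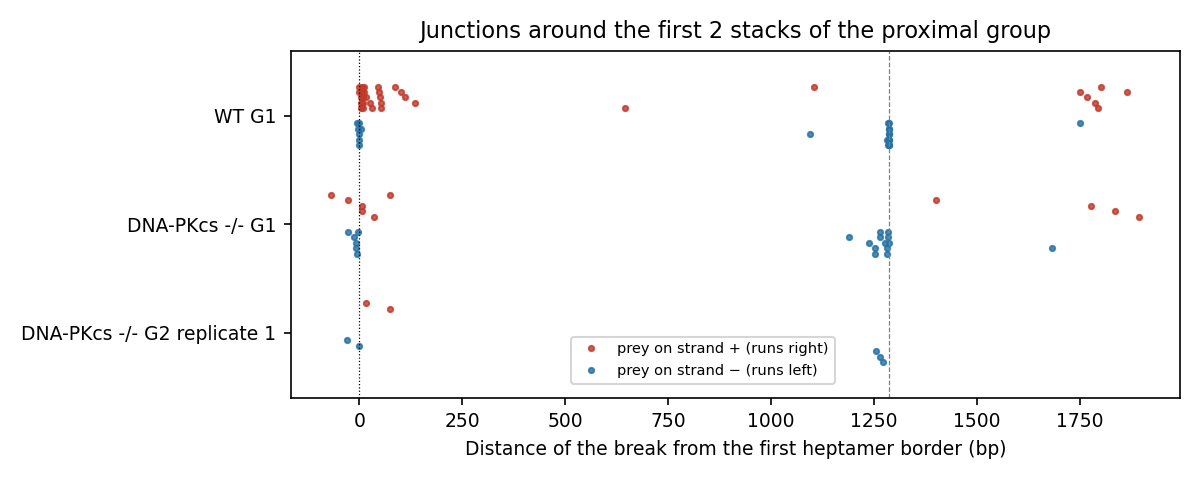
Breaks in the proximal group by distance from the border of the first heptamer (x axis, bp; dotted line at 0, dashed line at the second heptamer border 1287 bp to the right), for the 3 libraries with most members (rows), strand + in red and strand - in blue. In WT G1 strand + trails to the right of the first border while strand - stays at it, and at the second border the junctions are on strand -. The border of the bottom-strand CACTGTG, 7 bp to the right of 0, is not drawn.

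By 1 definition of a heptamer-like border, closeness to such borders set WT G1 apart from DNA-PKcs -/- G1 in the proximal group. Borders were counted on both strands for every 7-base stretch that keeps CAC and matches CACAGTG at 6 or more bases, of which the window has 1403, and 2.43% of its positions lie within 3 bp of one. In the proximal group 27 of 57 WT G1 breaks did so, or 47.4% (35.0% to 60.1%). For DNA-PKcs -/- G1 it was 6 of 45, or 13.3% (6.26% to 26.2%), and for DNA-PKcs -/- G2 replicate 1 2 of 12. The WT G1 and DNA-PKcs -/- G1 intervals did not overlap, but with 1 library on each side the difference was not tested over replicates. With borders of CAC alone the shares were 61.4% (48.4% to 72.9%) in WT G1 and 46.7% (32.9% to 60.9%) in DNA-PKcs -/- G1. With CACA they were 43.9% (31.8% to 56.7%) and 28.9% (17.7% to 43.4%). With the whole CACAGTG they were 12.3% (6.08% to 23.2%) and 0% (upper limit 7.87%). WT G1 was higher each time, but these intervals overlapped.

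The distal breaks of the DNA-PKcs -/- libraries were seldom near borders of the stretches that match at 6 or more bases. They numbered 3 of 45 in DNA-PKcs -/- G1 (6.67%, 2.29% to 17.9%) and 4 of 76 in DNA-PKcs -/- G2 replicate 1 (5.26%, 2.07% to 12.8%). The intervals of both include the 2.43% of all positions. In WT G1 2 of 9 distal breaks were near one (22.2%, 6.32% to 54.7%), an interval above that share. With borders of CAC alone, DNA-PKcs -/- G2 replicate 1 had 29 of 76 (38.2%, 28.1% to 49.4%), above the 25.5% of positions near one. DNA-PKcs -/- G1 had 10 of 45 (22.2%, 12.5% to 36.3%), an interval that includes 25.5%. With CACA the intervals of both DNA-PKcs -/- libraries included the 10.8% of positions. Of the 9 distal breaks of WT G1, 5 formed the stack at 167752998, all on strand -, with 4 at the same prey position and different bait ends. That stack lies at the border of a bottom-strand CACAGCC, which matches the heptamer at 5 of 7 bases, and DNA-PKcs -/- libraries had 0 junctions in it. Its 5 junctions on strand - read left over this stretch, the heptamer side, and not over the flank outside it. The 1 distal junction of WT G2 replicate 1 was 5 bp away, at 167753003.

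The distal junctions of DNA-PKcs -/- divided by strand at 1 place. Over both DNA-PKcs -/- libraries, the boundary that left the fewest junctions reading inwards lay between 167764884 and 167764889. On its left were 77 junctions, 70 of them on strand -, and on its right 44, all on strand +. The 7 exceptions were strand + junctions on the left. This boundary was placed by the strands themselves, so the counts describe it and do not test it.

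The libraries placed the boundary alike when taken alone. In DNA-PKcs -/- G1 it fell between 167764884 and 167764891, with 25 of 28 on strand - to its left and 17 of 17 on strand + to its right. In DNA-PKcs -/- G2 replicate 1 it fell between 167764716 and 167764881, with 44 of 47 and 28 of 29. These ranges lie 3 bp apart. A stack of 5 junctions, 2 and 3 from these libraries, stood at 167764880. Its window, printed above, has TACTGTG at 167764877 to 167764883, on the bottom strand CACAGTA, which matches the heptamer at 6 of 7 bases.

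The spread on either side of the boundary was wider on the left. The median distance was 1505.5 bp on the left and 758.5 bp on the right, and the longest were 14650.5 and 4839.5 bp. The medians were 1137 and 730.5 bp in DNA-PKcs -/- G1, and in DNA-PKcs -/- G2 replicate 1 they were 1746.5 and 995.5 bp. The left side was thus the longer in each library. The median bait deletion was 46 bp on the left and 31 bp on the right, but the order of the sides was opposite in the 2 libraries, with 23 and 32 bp in G1 and 54 and 30 bp in G2 replicate 1.

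**Figure D4:**
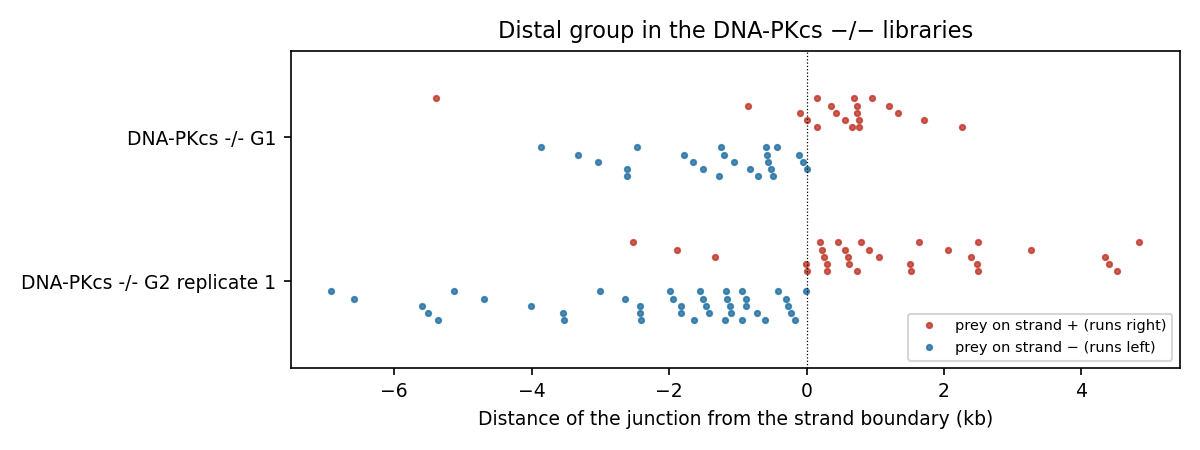
Distal junctions by distance from the strand boundary (x axis, kb; dotted line at 0) in the DNA-PKcs -/- G1 and G2 replicate 1 libraries (rows), strand + in red and strand - in blue. The plot shows the 44 and 72 junctions from -8 to 6 kb, and the strands separate at 0 in both libraries, apart from a few strand + points on the left.

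The remaining libraries added few positions. WT G2 replicate 1 had 3 proximal members, at 167685258, 167685261 and 167688303, all on strand -, and 2 at 167717335. DNA-PKcs -/- G1 and G2 replicate 1 each had 1 member beside the latter, at 167717322 and 167717336. The CtIP A/A G2 replicate 1 member lay at 167543951, and the CtIP A/A G2 replicate 2 members at 167700696 and 167840552. None of the CtIP A/A members was in the proximal or the distal group.

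How the ends were joined was compared with the other genome junctions of the same library, those outside the cluster, the telomere repeats and the antigen receptor loci. Position alone chose the members, and bait deletion, homology and insertion were not used. Homology is the number of bases that could belong to bait or prey, insertion the number that belong to neither, and a direct join has none of them. The mean difference over the 3 libraries was tested with a two-sided exact sign-flip permutation test, adjusted by Benjamini-Hochberg over 5 measures. With 3 libraries its smallest p is 0.25, so it cannot reach 0.05 and cannot decide whether the differences hold over libraries. The per-library intervals treat the junctions of a library as independent, although members stacked at shared breaks. They cover counting error only, so they describe each library and do not test a difference over replicates.

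Long bait deletions were less frequent in the cluster than among the other genome junctions in each of the 3 libraries. Deletions of more than 20 bp were found in 52.1% of 94 members against 91.6% of 787 other genome junctions of DNA-PKcs -/- G1. The difference was -39.5 percentage points (95% Newcombe interval -49.6 to -29.4). For DNA-PKcs -/- G2 replicate 1 the shares were 64.9% of 94 and 80.8% of 219, a difference of -15.9 points (-27.0 to -5.35). In WT G1 they were 25.4% of 71 and 43.0% of 1508, a difference of -17.7 points (-26.7 to -6.21). No interval included 0, which describes each library alone. The mean was -24.4 ± 13.1 points (SD, n = 3; exact permutation p = 0.25, adjusted 0.625). Deletions over 100 bp were 2.82% in the cluster and 31.8% elsewhere in WT G1. They were 18.1% and 34.7% in DNA-PKcs -/- G2 replicate 1, and 13.8% and 38.6% in DNA-PKcs -/- G1. In WT G1 and DNA-PKcs -/- G2 replicate 1 this gap was wider than that over 20 bp. Deletions over 20 and up to 100 bp were thus not less frequent in the cluster of these libraries.

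Median deletions were shorter in the cluster than among the other genome junctions in both DNA-PKcs -/- libraries. The median bait deletion was 24.5 bp in the cluster and 64 bp elsewhere in DNA-PKcs -/- G1, and 41 and 62 bp in DNA-PKcs -/- G2 replicate 1. It was 4 bp in both sets in WT G1, where 36 of 71 members had lost 0 to 5 bp. The mean difference was -20.2 ± 19.8 bp (SD, n = 3; exact permutation p = 0.5, adjusted 0.625). The longest deletion that the bait alignments recorded was 149 bp, so longer ones are not seen. Among junctions with the prey on the substrate, deletions over 20 bp made up 26.2% of 1176 in WT G1. They made up 66.0% of 1384 in DNA-PKcs -/- G1 and 61.9% of 850 in DNA-PKcs -/- G2 replicate 1. Only in DNA-PKcs -/- G1 did the interval of the cluster share, 42.1% to 61.9%, lie below the substrate share.

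Insertions were also less frequent in the cluster than among the other genome junctions. On the substrate they were 61.7% in WT G1, 23.3% in DNA-PKcs -/- G1 and 19.9% in DNA-PKcs -/- G2 replicate 1. The shares in the cluster and among the other genome junctions were 27.7% and 51.1% in DNA-PKcs -/- G1, a difference of -23.4 points (-32.2 to -13.0). They were 16.0% and 42.0% in DNA-PKcs -/- G2 replicate 1, a difference of -26.1 points (-35.0 to -15.3). In WT G1 they were 38.0% and 47.1%, a difference of -9.12 points whose interval, -19.8 to 2.78, includes 0. The mean was -19.5 ± 9.11 points (SD, n = 3; exact permutation p = 0.25, adjusted 0.625). Insertions over 3 bp were 8.51% in the cluster and 33.8% elsewhere in DNA-PKcs -/- G1. They were 6.38% and 21.9% in DNA-PKcs -/- G2 replicate 1, and 7.04% and 23.2% in WT G1. In DNA-PKcs -/- G1 and WT G1 this gap was wider than that of all insertions. Insertions of 1 to 3 bp were thus not less frequent in the cluster of these libraries.

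Homology of 1 bp or more did not move one way in the 3 libraries. It was more frequent in the cluster in DNA-PKcs -/- G1, with 52.1% against 32.4%, a difference of 19.7 points (9.20 to 30.04). It was more frequent in DNA-PKcs -/- G2 replicate 1, with 76.6% against 39.7%, a difference of 36.9 points (25.3 to 46.6). In WT G1 it was 36.6% against 43.2%, a difference of -6.62 points (-17.2 to 5.27). The mean was 16.7 ± 21.9 points (SD, n = 3; exact permutation p = 0.5, adjusted 0.625). With the proximal group alone it was 4.41 points, and without DNA-PKcs -/- G2 replicate 1 it was 6.55 points. Homology of 4 bp or more was less frequent in the cluster in DNA-PKcs -/- G1, with 6.38% against 13.5%. The same held in WT G1, with 7.04% against 22.5%. In DNA-PKcs -/- G2 replicate 1 it was 19.1% against 15.5%.

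Direct joins differed in sign between the libraries. The difference was 15.7 points in WT G1 (6.92 to 27.0), from 25.4% in the cluster and 9.62% elsewhere. It was -10.8 points in DNA-PKcs -/- G2 replicate 1 (-17.6 to -2.35) and 3.69 points in DNA-PKcs -/- G1 (-3.71 to 13.2). The mean was 2.87 ± 13.3 points (SD, n = 3; exact permutation p = 0.75, adjusted 0.75).

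The quality of the prey alignments moved with these differences. More than 5% of prey bases were mismatched in 35.6% of the other genome junctions of DNA-PKcs -/- G1, 24.2% of those of DNA-PKcs -/- G2 replicate 1 and 17.7% of those of WT G1. In the cluster it was 2.13%, 0% and 2.82%. The median prey alignment was 38, 38 and 57 bp elsewhere against 78, 63 and 65 bp in the cluster. With such junctions left out on both sides the mean differences were -21.5 points for long bait deletions, -12.2 for insertions, 9.70 for homology and 2.52 for direct joins, so they kept their signs.

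The share with homology was the higher in the distal group in both DNA-PKcs -/- libraries, with intervals that overlap between groups. Within DNA-PKcs -/- G1 homology was present in 40.0% of 45 proximal junctions (27.0% to 54.5%) and 64.4% of 45 distal junctions (49.8% to 76.8%). Within DNA-PKcs -/- G2 replicate 1 it was present in 6 of 12 (25.4% to 74.6%) and 81.6% of 76 (71.4% to 88.7%). The 12 proximal junctions of the latter library leave its proximal share imprecise. In WT G1 the values were 38.6% of 57 and 44.4% of 9.

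Insertions in the distal group were 24.4% of 45 in DNA-PKcs -/- G1 and 11.8% of 76 in DNA-PKcs -/- G2 replicate 1. In the proximal group they were 31.1% of 45 and 41.7% of 12. Deletions over 20 bp were 53.3% and 68.4% in the distal group and 51.1% and 41.7% in the proximal group of these libraries. In WT G1 0 of 9 distal junctions had such a deletion, against 17 of 57 proximal ones (29.8%).

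**Figure D5:**
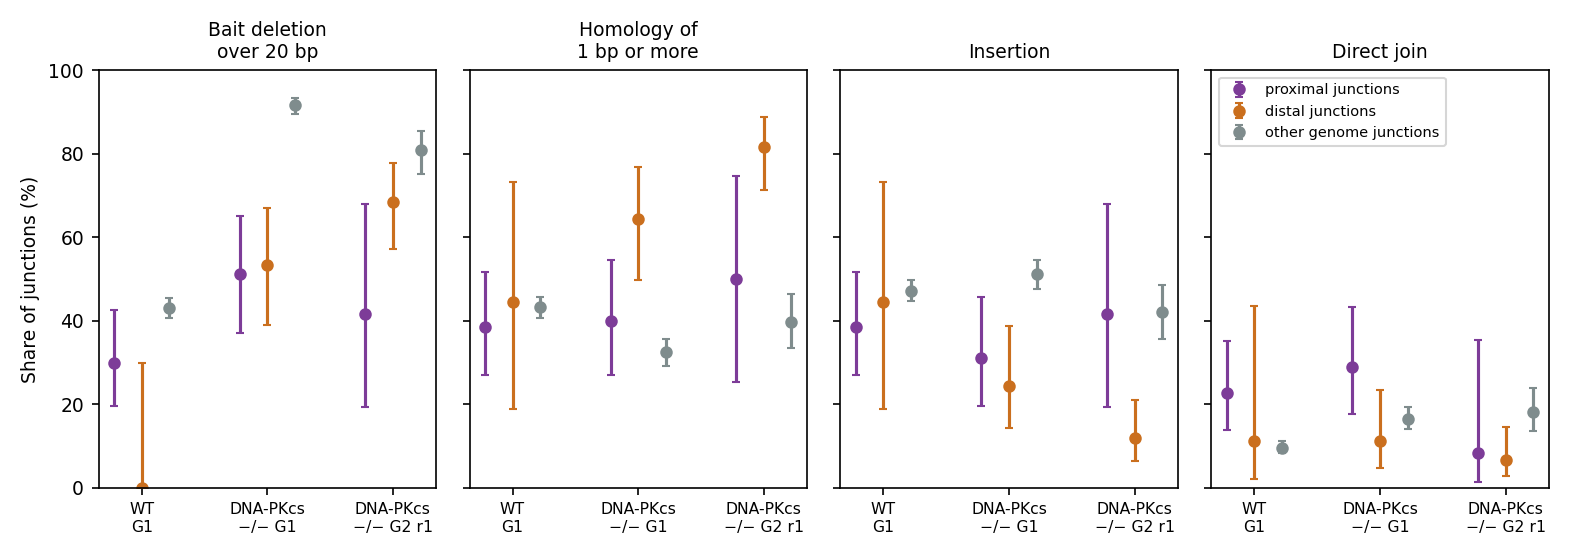
Share of junctions (y axis, percent) with a bait deletion over 20 bp, homology of 1 bp or more, an insertion or a direct join in the proximal group, the distal group and the other genome junctions, for the 3 libraries (x axis), with 95% Wilson intervals. In the DNA-PKcs -/- libraries the homology share is highest in the distal group, at 64.4% and 81.6%. Insertions among the other genome junctions of these libraries are at 51.1% and 42.0%. The proximal share of DNA-PKcs -/- G2 replicate 1, 41.7% of 12 (19.3% to 68.0%), is close to the latter.

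The 2 other 200 kb windows with the most junctions served to set the cluster in place. The first, on chromosome 3 between 107816776 and 107867659, had 157 of its 159 junctions in the CtIP A/A DNA-PKcs -/- G2 replicate 2 library, which had 0 in the chromosome 2 cluster. There 75.8% read away from the densest point, 77.1% had homology and 14.0% an insertion, beside 88.3%, 76.6% and 16.0% in the chromosome 2 cluster of DNA-PKcs -/- G2 replicate 1 with its own densest point. The median bait deletion was 5 bp there and 41 bp here. The second, on chromosome 6 between 53083920 and 53084952, had 61 junctions in 8 libraries, all on strand -. Each of these comparisons sets single libraries of different genotypes side by side, and their difference was not tested.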

How the data were processed

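Genomic DNA was sonicated, amplified from a biotinylated bait primer and a nested primer, digested with BstBI to remove uncut substrate and sequenced on a MiSeq, per the labels' protocols. The alignment used mm10 with the substrate as an added chromosome, per the labels' protocols, and the submitters' processing notes name Bowtie2. No version is stated, and what called and filtered junctions or treated duplicates is not given in the sources used here. Deposited tables list 1 junction per line with prey position, strand, bait end and both alignments on the read, per the file headers, and hold no normalized values. The authors' junction calls were used as deposited.

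The members and lists were chosen with earlier results of these data known. A prey on strand - has its break right of the junction base, and one on strand + left of it. Telomere-repeat junctions had 3 or more repeat units in the prey. Libraries had 289 to 7068 junctions, which is their depth. Shares carry 95% Wilson intervals, differences Newcombe intervals, and a count of 0 allows 3 counts of the total. Genes came from GENCODE M21 and sequence from GRCm38.p6. Python 3.11.15, numpy 2.4.6, pandas 2.3.3, scipy 1.17.1 and matplotlib 3.10.9 were used, and the search for the densest point was tested on simulated data. Named genes lay within 100 kb of the densest point or overlapped 3 or more members. Positions were named where 3 or more lines or 2 or more libraries shared them, and positions of single members of the less populated libraries were named after their values were seen. Alternatives were repeat lines, prey length, window, extent, coding end, comparison set and left-out library. The 6 I-PpoI samples were not analysed here.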

Additional observations from a re-analysis of the deposited data

How the results depend on the processing

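The 5 differences between cluster and other genome junctions kept their sign under every alternative run, except direct joins. That mean difference turned to -3.75 points with telomere-repeat and antigen receptor junctions kept, to -5.20 with the distal group alone (chosen after seeing the data, like the proximal group alone and the limit of 5% mismatches) and to -3.56 without WT G1. The cause was not tested. Other differences changed in size. Homology fell from 16.7 points to 5.16 within 50 kb of the densest point, 4.41 with the proximal group alone and 6.55 without DNA-PKcs -/- G2 replicate 1. Insertions went from -19.5 to -12.0 and -9.62 points under the former 2 settings. The median bait deletion went from -20.2 to -11.8 bp with telomere-repeat and receptor junctions kept and to -10.5 bp without DNA-PKcs -/- G1. Leaving out each library in turn gave -28.6 to -16.8 points for long bait deletions, -24.7 to -16.3 for insertions, 6.55 to 28.3 for homology, -3.56 to 9.72 for direct joins and -30.25 to -10.5 bp for the median bait deletion. With 2 libraries the smallest p is 0.5. Limited to 50 kb of the densest point, which leaves out the distal group, DNA-PKcs -/- G1 kept 48 members and DNA-PKcs -/- G2 replicate 1 kept 15. The CtIP A/A G2 libraries, whose members lay in neither group, kept 0 and 1. The median distance in DNA-PKcs -/- G2 replicate 1 was 77534 bp with a 2 kb window for the densest point, 63247 bp with 50 kb and 1977 bp with the library's own point, which took the share reading away to 88.3%. In WT G1 these distances were 904, 15156 and 3561 bp. Counting each combination of prey position, strand and bait end once, prey alignments of 30 bp or more and the most frequent bait end as coding end left all values they touched within their spread and direction. No paired analysis was possible because the 3 libraries belong to 3 groups that share fewer than 2 replicate numbers, so no replicate block could be fitted. The sign-flip test already sets each library's cluster junctions against its own other junctions. The number of junctions limits the CtIP A/A and WT G2 libraries most, and 3 libraries in the test allow no p under 0.25.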
